A study of Mus musculus with 9 samples.

Results

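The transient accessible regions of days 3 and 6 of reprogramming were those with an ATAC-Seq peak in both the D3 and the D6T- library and in none of D0, D9T-, D12S+, D16S+ and iPSCs. Overlapping peaks of these 7 libraries on chromosomes 1 to 19 were merged into 204843 union regions, and a region counted as present in a library when a peak overlapped it by at least 1 bp. By this rule 12558 regions (6.13% of the union) were transient. The members were thus chosen by the peak calls themselves, and their presence or absence in the time course is a description and not a result. The cells were mouse embryonic fibroblasts (MEFs) with a GFP tag on Oct4, infected with pMXs retroviruses carrying Oct4, Sox2, Klf4 and c-Myc (OSKM) and kept without feeder cells in medium with LIF, ascorbic acid, bFGF and CHIR99021. D0 and D3 were collected unsorted on days 0 and 3. D6T- and D9T- were the Thy-1-negative cells of days 6 and 9, D12S+ and D16S+ the SSEA-1-positive cells of days 12 and 16, and iPSCs were fully reprogrammed cells. Another 2 libraries, not used by the rule, came from Thy-1-negative cells of day 6 treated with siRNA against the histone variant H3.3 (D6 siH3.3) or with non-targeting siRNA (D6 siNT). By the study's methods that siRNA was given before OSKM infection and the depletion was transient and early. Each condition had 1 library, so no difference between conditions has a replicate check. The change of sorting between D3 and D6T- cannot be told apart from the change of day.

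ATAC-Seq marks DNA that the Tn5 transposase can reach, mostly nucleosome-depleted promoters and enhancers. Enhancers of fibroblasts are commonly bound by AP-1, a dimer of FOS, JUN or ATF family proteins that also acts early in many cell state changes, together with TEAD factors, which work with YAP and TAZ, and with RUNX factors. In reprogramming, the OSKM factors meet this landscape, in which enhancers of the starting cells close and those of pluripotent cells open. Promoters rich in CpG tend to be open in most cell types, while distal elements are more specific to a cell state.

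The following windows of 121 bp centred on the strongest summit give examples of the best supported members in sequence (mm9, forward strand). They belong to 23 distinct members, namely the 15 with the highest lower value of D3 and D6T- and the 10 such members in promoters of protein-coding genes. Capitals mark the motifs searched for: TGANTCA (AP-1), GGAATG (TEAD), TGTGGT (RUNX), ACAAAG and ACAATG (SOX), ATGCAAAT (OCT) and GGGTGTGG (KLF), each on both strands. AP-1 was found in 9 of the 23 windows, another 9 held one or more of the other motifs without it, and 5 held none of them. RUNX and ACAAAG were each found in 4 windows, TEAD in 3, ACAATG in 2, and OCT and KLF in 1 each. Shown are 4 windows with AP-1 and 5 without it, chosen to cover AP-1, TEAD, RUNX, SOX and KLF.
P2rx7 promoter, chr5:123099461-123099581: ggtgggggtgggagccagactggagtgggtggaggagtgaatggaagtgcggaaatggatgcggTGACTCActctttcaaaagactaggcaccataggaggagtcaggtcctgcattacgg
Pnkd and Tmbim1 promoter, chr1:74343989-74344109: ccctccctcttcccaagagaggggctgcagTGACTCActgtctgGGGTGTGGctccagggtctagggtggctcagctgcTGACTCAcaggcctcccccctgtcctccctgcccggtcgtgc
Vgll3 intron, chr16:65850394-65850514: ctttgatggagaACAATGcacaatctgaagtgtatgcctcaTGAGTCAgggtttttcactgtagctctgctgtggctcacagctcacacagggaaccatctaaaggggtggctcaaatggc
intergenic, Gm9934 nearest, chr7:100659279-100659399: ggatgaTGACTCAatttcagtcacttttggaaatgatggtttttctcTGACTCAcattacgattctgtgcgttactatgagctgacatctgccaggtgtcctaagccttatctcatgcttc
intergenic, Ms4a4b nearest, chr19:11539464-11539584: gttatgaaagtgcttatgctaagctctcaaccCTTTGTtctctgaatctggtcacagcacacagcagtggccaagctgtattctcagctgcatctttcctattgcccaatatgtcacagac
Tfdp1 promoter, chr8:13337351-13337471: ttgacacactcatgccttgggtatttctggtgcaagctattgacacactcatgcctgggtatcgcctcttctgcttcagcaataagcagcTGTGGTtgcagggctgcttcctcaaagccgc
intergenic, Robo2 nearest, chr16:73647574-73647694: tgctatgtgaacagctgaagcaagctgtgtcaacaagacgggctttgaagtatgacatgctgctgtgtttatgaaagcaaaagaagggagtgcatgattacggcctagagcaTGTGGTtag
Epha1 promoter, chr6:42324814-42324934: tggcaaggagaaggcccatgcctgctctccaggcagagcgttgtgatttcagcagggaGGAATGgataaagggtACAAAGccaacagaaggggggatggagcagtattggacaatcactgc
Litaf promoter, chr16:10976523-10976643: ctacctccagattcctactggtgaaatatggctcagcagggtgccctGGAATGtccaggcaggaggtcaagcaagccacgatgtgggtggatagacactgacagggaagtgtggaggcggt

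In these windows the centre of the AP-1 motif lay 7 bp from the summit at P2rx7 and -16 bp at Vgll3. The Pnkd and Tmbim1 window held 2 AP-1 motifs, at -27 and 22 bp, with a KLF motif between them at -12 bp. The region nearest to Gm9934 also held 2, at -51 and -10 bp. TEAD motifs lay 1 bp from the summit at Epha1 and -10 bp at Litaf, and the RUNX motifs lay farther out, 33 bp away at Tfdp1 and 55 bp near Robo2. These are matches of letters and not evidence of binding.

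The libraries held from 13213117 (D9T-) to 31714845 (D0) tags, with 30233396 at D3 and 21390800 at D6T-. The signal of a region was the pileup at its strongest summit, a count of overlapping tags after each was lengthened to 200 bp, and CPM is this count per 1000000 tags of the library. The lowest called signal was 0.331 CPM at D3, 0.374 at D6T- and 0.530 at D9T-, so an opening weaker than 0.530 CPM was not detectable at D9T-. Union regions present numbered 99597 at D3 and 126731 at D6T-, the libraries in which the rule asks for a peak. All others had fewer: 75753 at D0, 32973 at D9T-, 51453 at D12S+, 45436 at D16S+ and 56042 in iPSCs. D16S+ had 21172835 tags, near the depth of D6T-. How far the yield of calls gives the members was not tested. Of 10 fibroblast marker genes, 7 had a promoter peak at D0, 9 at D3 and 8 at D6T-. The later counts were 4 (D9T-), 6 (D12S+), 7 (D16S+) and 5 (iPSCs), so that of D16S+ equalled that of D0. Of 10 pluripotency marker genes, 3 had one at D0, 5 at D3 and 4 at D6T-, and the later counts were 2 (D9T-), 9 (D12S+) and 10 in both D16S+ and iPSCs. The other marker lists also fell from D6T- to D9T-: epithelial from 5 to 2, keratinocyte and trophoblast from 2 to 1, endothelial and blood and neural from 3 to 1. The share of all promoters with a peak in each library was not computed, so nothing about cell identity is read from these counts.

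Of the 71148 regions present in both D3 and D6T-, 17.7% were transient. Another 18634 were kept out by 1 library alone. That library was D0 for 13240 of them (71.1%), D9T- for 2439, D12S+ for 1524, iPSCs for 899 and D16S+ for 532. The 13240 regions shared with D0 had a median D0 signal of 20 tags (0.631 CPM), so most were not borderline there. Just inside the rule lay a region near Rdh10 (chr1:16151619-16152038) with 10 tags at D3 and 14 at D6T-, and a region in an intron of Dst with 10 tags in each. Just outside lay regions of 21 tags at D3 and 35 at D6T- in an intron of Cflar, and of 17 and 26 tags near Tnp1, each with a peak of 7 tags at D9T-, the lowest pileup called in that library. A peak of one of the 5 other libraries lay within 500 bp of 1513 members (12.0%).

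Most members were weak. At D3 the median signal was 16 tags (quartiles 13 and 19), or 0.529 CPM, and at D6T- it was 17 tags (quartiles 13 and 23), or 0.795 CPM. Both signals reached 0.530 CPM, the highest of the 7 detection limits, in 4833 members (38.5%), and both reached 1 CPM in 193 (1.54%), against 30.1% of all regions present in D3 and D6T-. A -log10 q-value of 5 was reached in both libraries by 5261 members (41.9%). The summits of both days lay close together, 41 bp apart in the median member and within 100 bp in 83.9%. Over the 12558 members the D3 and D6T- signals had a Spearman's rho of 0.325 and, on the log2 scale, a Pearson's r of 0.341, a description over regions that share their libraries and were all selected for a peak in both.

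The D6T- signal was above the D3 signal in 10956 members (87.2%), with a median log2 ratio of 0.60 (1.51-fold). This was also true of all regions in both libraries, whose median was 0.76 (1.70-fold). At least 1.5-fold above D3 were 6464 members (51.5%), against 63.9% of all 71148 regions, so the share of members was below that background, and nothing is read from it because the rule used both libraries. The widest gain was at an intergenic region near Rasa2 (chr9:96545677-96546288), with 10 tags at D3 and 60 at D6T-, and this region was called in D6 siNT with 24 tags and in D6 siH3.3 with 11. At least 1.5-fold above D6T- at D3 were 123 members (0.979%). The share of all 71148 regions in this direction was not computed, so nothing is read from this count either.

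**Figure D1:**
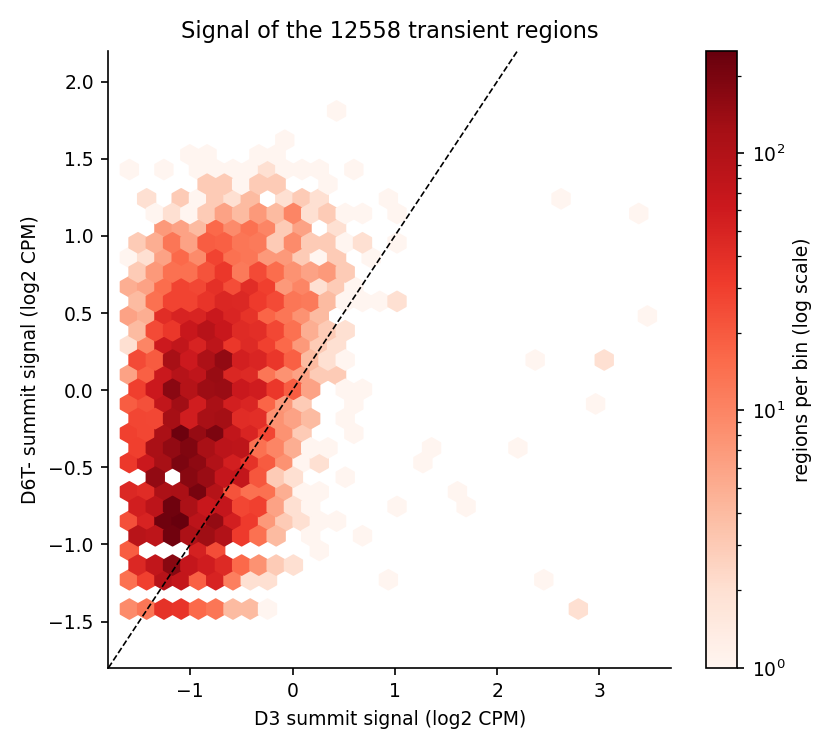
Signal of the 12558 transient regions at D3 (x axis, log2 CPM) and at D6T- (y axis, log2 CPM), 1 library each; colour gives the number of regions per hexagon on a log scale and the dashed line marks equal signal. Most regions lie above the line, as 87.2% had the higher value at D6T-, the horizontal stripes are whole numbers of tags, and a few regions stand far to the right.

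The few regions far to the right were 12 members with more than 100 tags at D3. They had from 102 to 335 tags at D3 and from 8 to 50 at D6T-, while no other member exceeded 92 tags at D3. The tallest was the Acacb promoter (chr5:114622952-114623326; acetyl-CoA carboxylase beta, a regulator of fatty acid oxidation), with 335 tags at D3, 48 at D6T-, 52 in D6 siNT and 44 in D6 siH3.3. Of the 12, 7 were between 366 and 375 bp wide. One or both siRNA libraries had a peak at 11 of the 12, against 23.0% of all members and 24.7% of all union regions. The repeat content of the 12 was not analysed here, so how far their pileups come from repeated sequence was not tested. An intronic region of Csda had 215 tags at D3, 8 at D6T-, 16 in D6 siNT and 42 in D6 siH3.3. Another lay over the last exon of Klf4 (chr4:55540843-55541362), with 241 tags at D3, 24 at D6T-, 15 in D6 siNT and 24 in D6 siH3.3. Klf4 is one of the 4 retroviral factors. Of the regions over exons of the other factors, none of them a member, that of Sox2 had 375 tags at D3 against 14 at D0 and 104 at D6T-. Of the 3 regions of Myc, 2 had 246 and 253 tags at D3 against 56 and 79 at D6T-, while the third had 24 at D0, 26 at D3 and 33 at D6T-. That of Pou5f1, which encodes Oct4, had 747 at D3 and 416 at both D0 and D6T-. It spans chr17:35634607-35652167 and is far wider than the regions of the other factors. Its strongest summit therefore need not lie over an exon, or at the same place in each library. Tags from a retroviral copy and from the gene's own exon cannot be told apart in the peak files. Without the 12, the median log2 ratio of D6T- to D3 was also 0.60.

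The D6 siNT library offers a readout of day 6 Thy-1-negative cells that the rule did not use. A D6 siNT peak was present at 1924 members (15.3%, 95% Wilson interval 14.7 to 16.0), against 20.1% of all union regions and 32.0% of all D6T- regions. D6 siH3.3 had a peak at 1995 members (15.9%, interval 15.3 to 16.5), against 20.4% of all union regions. Both libraries had one at 1028 members (8.19%), against 15.8% of all union regions. Neither had one at 9667 (77.0%), which was near the 75.3% of all union regions. These intervals, here and below, hold the sampling of regions only and not the spread between libraries. Recovery was higher than in the regions of D6T- alone (7.35%) and of D3 alone (0.357%), and much lower than in the 2146 regions that were absent from D0 and present from D3 onwards in all later libraries (77.2%). The class rules themselves bear on these contrasts. Regions of D3 alone lacked a D6T- peak by definition. Those from D3 onwards had a peak in D6T- and in every later library. How far the rules alone give these contrasts was not tested.

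Recovery rose with the D6T- signal. A D6 siNT peak was present at 3.63% of the members below 0.5 CPM at D6T-, 5.50% from 0.5 to 0.75, 11.4% from 0.75 to 1, 26.6% from 1 to 1.5 and 58.7% (interval 55.4 to 61.9) of the 869 members at 1.5 CPM or above. At matched signal the regions of D6T- alone gave 2.45% below 0.5 CPM, 4.63% (interval 4.37 to 4.91, against 4.89 to 6.18 in members) from 0.5 to 0.75, 12.2% from 0.75 to 1, 27.4% from 1 to 1.5 and 58.2% (interval 51.8 to 64.2) at 1.5 CPM or above. The members were thus a little higher below 0.75 CPM and nearly equal above it. Regions present from D3 onwards were recovered more often at every level, in 51.5% from 0.75 to 1 CPM and 93.0% at 1.5 CPM or above. The members with a D6 siNT peak had a median of 1.22 CPM at D6T- and the others 0.748 CPM, whereas their D3 medians were 0.562 and 0.529 CPM.

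**Figure D2:**
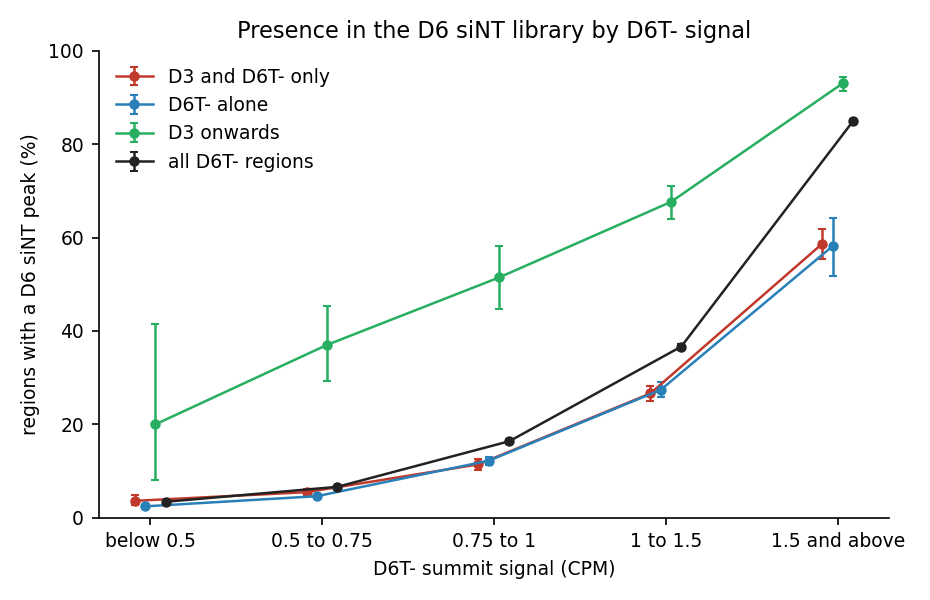
Share of regions with a D6 siNT peak (y axis, percent) by D6T- summit signal (x axis, CPM classes) for the transient regions, the regions of D6T- alone, those present from D3 onwards and all D6T- regions; points are shares and bars 95% Wilson intervals. The transient regions and those of D6T- alone rise together to 58.7% and 58.2%, below the 85.0% of all D6T- regions and the 93.0% of the regions from D3 onwards.

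Signals of D6 siH3.3 and D6 siNT, a comparison bearing on day 6 cells after early, transient depletion of H3.3, could be set side by side at 1024 members with a summit of both libraries inside the region. The median log2 ratio of D6 siH3.3 to D6 siNT was 0.10 (1.07-fold, quartiles -0.19 and 0.35), against 0.08 over all 32274 such union regions. At least 1.5-fold higher in D6 siH3.3 were 107 members (10.4%), against 9.60% of all, and at least 1.5-fold lower were 57 (5.57%), against 5.17%. Both shares were near the background. The widest difference downwards was in an intron of Sri (sorcin, a calcium-binding protein), with 42 tags at D6T-, 23 in D6 siNT and 8 in D6 siH3.3. The widest upwards was the Csda intron given above (3.06-fold), one of the 12 tall regions of D3. The next was the Ilkap promoter (a serine/threonine phosphatase; 2.72-fold), with 25 tags at D6T-, 9 in D6 siNT and 21 in D6 siH3.3. With 1 library each and counts of this size, such single regions cannot be separated from counting and library differences.

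The members were mainly distal, as were all union regions. By the midpoint of the region, 1226 (9.76%, interval 9.26 to 10.3) lay in a promoter, taken as the 3 kb upstream of a transcription start site (TSS), 5667 (45.1%) in an intron, 529 (4.21%) in an exon and 5136 (40.9%) between genes. Of all union regions, 13.6% lay in promoters, 40.1% in introns, 7.50% in exons and 38.9% between genes. The regions of D3 alone had 14.6% in promoters and 15.4% in exons, those of D6T- alone 8.15% and 2.98%, and those present from D3 onwards 25.8% and 13.3%, so the members lay nearest to the D6T- alone class. The median distance to the nearest TSS of a protein-coding gene was 24.0 kb in members, 17.9 kb in all union regions and 31.4 kb in D6T- alone, and 33.2% of members lay over 50 kb away. The windows of 300 bp around the summit had a median GC content of 48.0%, between the 44.3% of D6T- alone and the 55.7% of D3 alone. A ratio of observed to expected CpG of at least 0.6, as in CpG islands, was found in 2.48% of members. This was near the 3.03% of D3 alone and the 1.76% of D6T- alone. It was 8.71% in all union regions and 28.9% in the regions from D3 onwards.

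Within promoters of protein-coding genes the members were few but included strong ones. The P2rx7 promoter (chr5:123099270-123099741; an ATP-gated ion channel) had 43 tags at D3 and 75 at D6T-, the highest D6T- signal of any member (3.51 CPM), with 15 tags in D6 siNT and no D6 siH3.3 peak. The Sirt4 promoter (a mitochondrial sirtuin) had 32 tags at D3 and 35 at D6T-, and neither siRNA library had a peak. The region shared by the Pnkd and Tmbim1 promoters (chr1:74343599-74344361) had 40 tags at D3, 45 at D6T-, 18 in D6 siNT and 24 in D6 siH3.3, so it was found in all 4 libraries of days 3 and 6. So were the Adam19 promoter (a membrane metalloprotease), with 43, 28, 14 and 14 tags, and the Litaf promoter, with 33, 23, 9 and 10. The Tfdp1 promoter (the partner of E2F factors) had 46 tags at D3 and 42 at D6T- and no peak in either siRNA library, and the Epha1 promoter (an ephrin receptor) 34 and 24 and none.

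Of the members outside promoters, the strongest without a tall D3 signal was in an intron of Med12l (chr3:58917941-58918700), with 61 tags at D3, 49 at D6T- and 13 in D6 siNT. An intergenic region near Ms4a4b (chr19:11539297-11539785) had 62 tags at D3, 43 at D6T-, 16 in D6 siNT and 14 in D6 siH3.3. In an intron of Vgll3 (chr16:65850215-65850790; a cofactor of TEAD factors) there were 52 tags at D3, 32 at D6T-, 20 in D6 siNT and 16 in D6 siH3.3. The region nearest to Gm9934, 430 kb away (chr7:100659147-100659602), had 45 tags at D3, 48 at D6T-, 23 in D6 siNT and 19 in D6 siH3.3. By contrast, the region 252 kb from Kcns3 had 48 tags at D3 and 59 at D6T- but no peak in either siRNA library. Strength at D3 and D6T- thus did not fix whether a member was called in the siRNA libraries.

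AP-1 had the widest difference in share between the members and all union regions, in percentage points, of the 19 motifs searched. It was found in 5447 of the 12558 windows (43.4%, interval 42.5 to 44.2), against 28.0% of all union regions (a ratio of 1.55). This did not set the members apart from the regions of D6T- alone, where the share was 44.0%. The share was far lower in the regions of D3 alone (9.50%) and in those from D3 onwards (12.2%). Among the 13240 regions that differed from the members only by being present in D0 as well, it was higher, at 57.8%. The motif was centred: its density was 2.84 per kb within 50 bp of the strongest summit and 0.352 per kb from 500 to 1000 bp away, a ratio of 8.07, against 5.67 over all union regions, 7.49 in D6T- alone and 1.45 in D3 alone. The share rose with the D6T- signal, from 30.9% of the 4356 weakest members to 43.3% of the 4411 between and 57.7% of the 3791 strongest. It was 35.3% in promoters and 44.2% elsewhere.

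**Figure D3:**
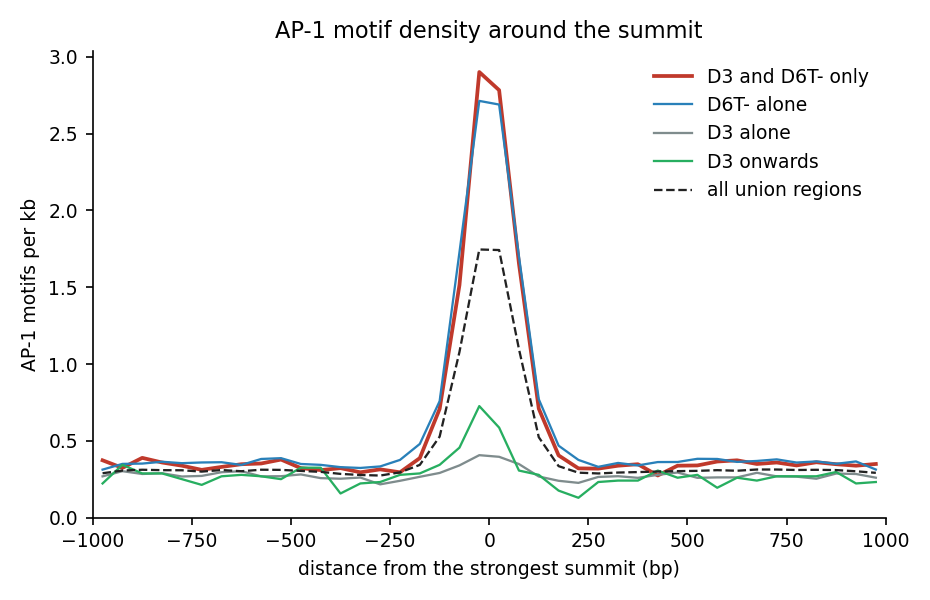
Density of the AP-1 motif (y axis, matches per kb, bins of 50 bp) by distance from the strongest summit (x axis, bp) for the transient regions, the regions of D6T- alone, D3 alone and D3 onwards, and all union regions. The transient regions and D6T- alone share a narrow peak at the summit, all union regions a lower one, and D3 alone and D3 onwards little rise.

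GC content differed between the classes, so AP-1 was also counted within bands of it. Below 40% GC the share was 55.7% in members and 48.8% in all union regions, from 40 to 45% it was 51.0 and 42.8%, from 45 to 50% it was 45.6 and 35.1%, and at 50% or above it was 34.5 and 16.2%. The members were higher in each band. In the regions of D6T- alone the shares in the same bands were 49.8, 46.8, 43.0 and 32.8%, each below that of the members, although the class as a whole was slightly above.

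The other motifs differed by fewer percentage points, although ETS and CTCF differed by a larger factor. RUNX was found in 28.9% of members and 24.6% of all union regions, with 33.4% in the regions also present in D0, and TEAD in 22.4 and 20.6%, with 31.7% in those regions. The E-box CAGCTG, bound by many bHLH factors, was found in 26.2 and 21.2%. In D3 alone it was found in 25.6%, in D6T- alone in 18.7% and in the regions from D3 onwards in 23.4%. Its density at the summit was 2.69 times that of the flanks, against 1.71 times over all union regions. The C/EBP motif (TTGCNNAA) was found in 17.1 and 12.1%. Lower than in all union regions were CTCF (AGGGGGC), with 3.75 against 6.51% (a ratio of 0.576), and ETS (CCGGAAG), with 1.78 against 3.15% (0.564). Both were lower still in D6T- alone, at 3.15 and 1.06%. They were higher than in members in D3 alone (6.80 and 2.08%) and from D3 onwards (12.0 and 5.96%). Of the motifs of the reprogramming factors, the octamer was found in 1.83 and 2.25%, and the KLF motif in 5.40 and 4.96%. The density of the KLF motif at the summit was 3.22 times that of the flanks, against 2.30 times over all union regions. The same ratio was 2.96 in D6T- alone, 1.91 in D3 alone and 4.03 from D3 onwards. The SOX motif ACAAAG was found in 27.5 and 24.5%, and ACAATG in 20.6 and 17.5%. Matches of different motifs may overlap in a window. AP-1, TEAD or RUNX was present in 70.1% of members and 56.0% of all union regions. Of the 19 motifs searched, those of STAT (TTCNNNGAA), FOX (TGTTTAC), TCF/LEF (CTTTGAT), GRHL (AACNNGTT), ESRRB (TCAAGGTCA), NFI (TTGGCA) and MYC (CACGTG), and AGATAA, bound by factors of the GATA family, were found at shares between 0.65 and 1.16 times that of all union regions.

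**Figure D4:**
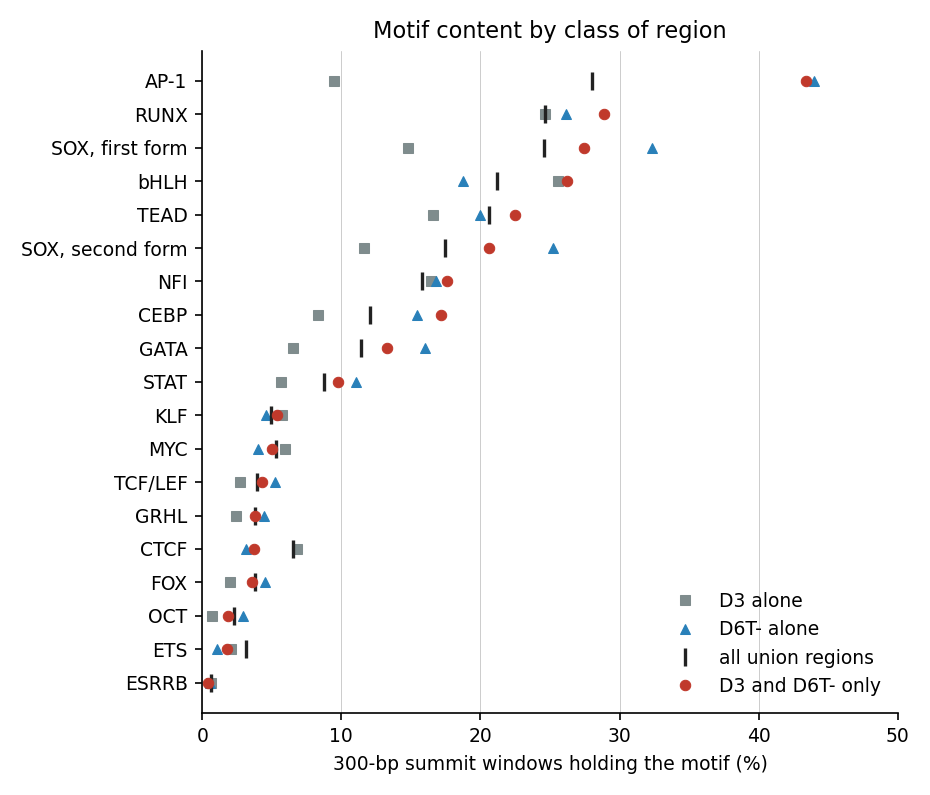
Share of 300-bp summit windows (x axis, percent) holding each of 19 motifs (y axis) in the transient regions, the regions of D3 alone and of D6T- alone, and all union regions; the SOX forms are ACAAAG (the upper) and ACAATG. For AP-1 the transient regions and D6T- alone, at 43.4 and 44.0%, lie far from D3 alone at 9.50%, while for SOX the transient regions lie between those of D3 alone and D6T- alone.

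SOX motifs were more common in the members with a D6 siNT peak than in those without. Of the 19 motifs, only those of SOX and AP-1 are given by D6 siNT here. No other class of regions was split in this way, so the difference is not shown to be particular to the members. ACAAAG was found in 39.1% of the members with a D6 siNT peak and 25.3% of those without, and ACAATG in 32.3 and 18.5%. Since the former were stronger at D6T- and lower in GC (median 45.3 against 48.3%), the shares were also taken within bands of signal and, separately, of GC. Signal and GC were not matched together. Below 1 CPM, ACAAAG was found in 36.5% of the members with a D6 siNT peak and 24.1% of those without, and from 1 to 1.5 CPM in 40.1% (interval 36.7 to 43.6) of 778 and 29.1% (27.2 to 31.1) of 2144. At 1.5 CPM or above it was found in 41.0% (interval 36.8 to 45.3) and 32.0% (27.4 to 37.0), and ACAATG in 38.4% (34.3 to 42.7) and 31.5% (26.9 to 36.5), so there the intervals overlapped. By GC, ACAAAG was found in 44.7 and 30.1% below 45%, in 38.7 and 27.7% from 45 to 50%, and in 29.4 and 20.1% at 50% or above. The share was higher with a D6 siNT peak in each of these bands.

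For AP-1 the totals were 51.0% with a D6 siNT peak and 42.0% without, and the bands of signal and of GC differed in direction. Below 1 CPM the shares were 38.4 and 37.1%, from 1 to 1.5 CPM 52.3% (interval 48.8 to 55.8) and 55.7% (53.6 to 57.8), and at 1.5 CPM or above 64.9 and 71.3%, so AP-1 was nearly equal in the lowest band of signal and less common with a D6 siNT peak in the others. By GC they were 56.0 and 51.0% below 45%, 52.1% (interval 48.0 to 56.1) and 44.6% (42.9 to 46.2) from 45 to 50%, and 40.5 and 33.8% at 50% or above, so it was more common with a D6 siNT peak in each band of GC.

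The members were spread over the genome, with a median spacing of 89.0 kb and between 5.04% (chromosome 7) and 7.84% (chromosome 3) of the union regions of each chromosome. Another member lay within 10 kb of 2596 of them (20.7%). The densest window of 1 Mb, from 26 Mb of chromosome 14, held 24 members, against a median of 5 over windows with any, and it includes Zmiz1 (a cofactor of the SMAD and androgen receptor pathways), with 12 members. Of 21418 protein-coding gene records, 4317 (20.2%) had a member between 3 kb upstream of the gene and its end. The most members were counted in Gm20388 (48), a read-through model of 4438 kb, and in Fgfr2 (29), whose model in this annotation spans 3012 kb. Then came Rbms3 (18, an RNA-binding protein), Dst (14, the cytoskeletal linker dystonin), Ptprm (14, a receptor phosphatase of cell contacts), and Arhgap26 and Zmiz1 with 12 each.

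Among lists of genes, that of the fibroblast extracellular matrix held the most members for its union regions. Over all protein-coding genes 7046 of 118522 union regions in gene spans (5.94%) were transient. For 23 genes of the fibroblast extracellular matrix it was 38 of 236 (16.1%, interval 12.0 to 21.3), in 13 of the genes. Col3a1, a fibrillar collagen, held 4 among 6 union regions, Col12a1 5 among 17, Fbn1 (fibrillin, of elastic microfibrils) 7 among 27 and Thbs1 (thrombospondin) 5 among 15. The Col3a1 promoter region (chr1:45365864-45366292) had 29 tags at D3, 28 at D6T-, 15 in D6 siNT and 14 in D6 siH3.3, and the strongest of Fbn1 had 35, 25, 14 and 12. Fn1, Postn, Dcn and Vcan of the same list held none. These gene lists were composed with earlier results of the same data in view and their spans differ in length, with a median of 41.2 kb here against 18.5 kb over all genes. The intervals treat regions within a gene as independent. Here and in the other lists they are therefore a description and not a test.

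The list of RUNX factors and partners had 15 of 108 union regions (13.9%, interval 8.60 to 21.7), 5 each in Runx1, Runx2 and Runx1t1. Runx1t1 encodes a corepressor and not a RUNX factor, and without it the list had 10 of 89 (11.2%, interval 6.22 to 19.5). Runx3 held none among 25 union regions, and Cbfb, the common partner of RUNX proteins, none among 3. The TGF-beta and BMP list had 29 of 271 (10.7%), led by the co-receptor Tgfbr3 with 8 and the receptor Bmpr1b with 6, and Tgfbr2 and Smad7 with 3 each. Mesenchymal transcription factors had 16 of 158 (10.1%), with 4 in Tcf4, 3 in Zeb1, and 1 each in Snai2 and Zeb2. Of its 15 genes, 8 held a member, and Twist1, Snai1, Foxc1, Foxc2, Foxf1a, Osr1 and Prrx2 held none. Cytoskeleton and adhesion genes had 21 of 211 (9.95%), with 5 in Myh9 (non-muscle myosin) and 4 in Mkl1 (a coactivator of SRF). The list of TEAD, YAP and targets had 16 of 170 (9.41%, interval 5.88 to 14.7, which contains the 5.94% of all genes), in 8 of 13 genes, 3 each in Tead1, Lats2 and Vgll3. Tead2, Tead3 and Tead4 held none, nor did the targets Ctgf and Cyr61. An intronic region of Wwtr1, which encodes TAZ, had 28 tags at D3, 42 at D6T- and 9 in D6 siNT. The MAPK list had 53 of 604 (8.77%), and 24 of 208 (11.5%) without the long Fgfr2 model, with 8 in Egfr, the EGF receptor.

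Read as description only, the intervals of the other lists, from epithelial to blood genes, all contain the 5.94% of all genes. Epithelial genes had 3 of 107 (2.80%, interval 0.958 to 7.92), in introns of Grhl2 and Ocln, and Cdh1 and Epcam held none. Pluripotency genes had 4 of 146 (2.74%, interval 1.07 to 6.83), in Klf4, Klf5, Tbx3 and Esrrb. That in Klf4 is the exonic region with 241 tags at D3 described above. Nanog, Pou5f1, Sox2 and Sall4 held none. AP-1 subunits, short genes for the most part, had 3 of 58 (5.17%, interval 1.77 to 14.1), in Atf3, Maff and Mafk, and Fos, Jun and Junb held none. Wnt genes had 15 of 237 (6.33%, interval 3.87 to 10.2), 5 of them in Tcf7l2, whose strongest (chr19:55955004-55955769) had 32 tags at D3, 36 at D6T-, 25 in D6 siNT and 15 in D6 siH3.3. Keratinocyte (3 of 84), trophoblast (2 of 57), neural (3 of 68) and endothelial and blood genes (6 of 94) lay between 3.51 and 6.38%.

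**Figure D5:**
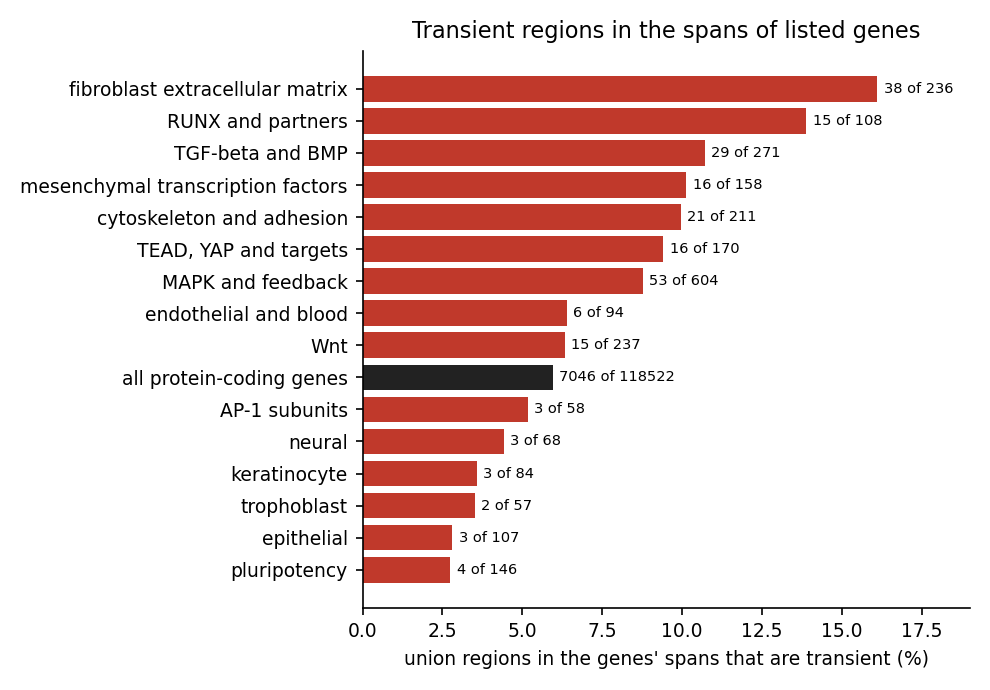
Share of union regions in the spans of listed genes that were transient (x axis, percent), for 15 gene lists and for all protein-coding genes (dark bar); labels give transient regions of all union regions. Fibroblast matrix genes, at 16.1%, lie highest, followed by RUNX factors and partners at 13.9% (11.2% without Runx1t1), and epithelial and pluripotency genes, at 2.80 and 2.74%, lowest, with intervals that contain the 5.94% of all genes.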

How the data were processed

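ATAC-Seq peak files of 9 mouse libraries were used, 1 per condition, with groups taken from the sample labels. The authors mapped reads with STAR to mm9, removed duplicates with Picard and ran MACS2 2.1.0.20151222 with neither a control nor a local background, at a q-value of 0.05 (submitters' processing notes, methods and file headers). As deposited, the pileup is an unscaled signal: how many tags, each lengthened to 200 bp, lie over a summit. The deposited fold enrichment is a ratio over tags spread evenly across the genome. Significance was deposited as −log10 p-value and −log10 q-value.

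From these, peaks on chromosomes 1 to 19 were merged across the 7 time-course libraries, presence meant an overlap of 1 bp, and pileups were scaled to CPM by the tag totals in the file headers (13213117 to 31714845). A lower signal than the lowest called is not detectable. Genes, promoters (3 kb upstream of any TSS) and sequence came from GENCODE vM1 and NCBIM37, the same build as mm9, with positions counted from 1. Motifs were exact matches on both strands in 300 bp around the strongest summit. Shares carry 95% Wilson intervals, which cover the sampling of regions and not the spread between libraries. No test between conditions was made, since none has replicates. On simulated data the functions recovered the planted answer in 7 of 7 checks. Regions named are the 15 members with the highest lower CPM of D3 and D6T-, the 10 such in promoters of protein-coding genes, up to 3 per gene list, the 10 genes with most members (1 of them is not reported here), the extremes of each ratio and those next to the rule's threshold. The 12 members over 100 tags at D3 and the regions over exons of the reprogramming factors were chosen after their values were seen. The members and the gene lists were chosen with earlier results of these data known. Python 3.11.15, numpy 2.4.6, pandas 2.3.3, scipy 1.17.1 and matplotlib 3.10.9 were used.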

Additional observations from a re-analysis of the deposited data

Results flagged for a closer look

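Chromosome X lay outside the chromosomes from which the members were drawn. By the same rule, 334 of its 4312 union regions (7.75%, 95% Wilson interval 6.99 to 8.58) were present in D3 and D6T- and absent from the other 5 libraries, against 6.13% on chromosomes 1 to 19. Of these, 48 (14.4%) had a D6 siNT peak.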

How the results depend on the processing

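Each result was recomputed with other peak thresholds, rules and windows. The number of members was 7764 with the stronger 50% of the peaks, 1280 when every time-course library was reduced to its strongest peaks, in the number D9T- has, 7336 with a common floor of CPM and 25798 without the requirement of absence from D0. It stayed between 10543 and 14997 with a -log10 q-value of 5, a distance of 500 bp, an overlap of 50% and without the requirement of absence from D9T-. In the same order as the 4 former settings, the AP-1 share was 50.0, 63.2, 47.6 and 50.8%, the D6 siNT share 13.7, 48.7 (with that library left whole), 16.2 and 17.1%, and the promoter share 10.0, 8.67, 9.20 and 8.47%. The AP-1 share was 47.5% with a -log10 q-value of 5, 45.3% with no other peak within 500 bp and 44.7% without the requirement on D9T-, where the promoter share was 8.26 and 9.24% in the latter pair and the D6 siNT share 24.7% in the last. The promoter share was 4.41% with 1 kb upstream to 100 bp downstream, and 7.86% with protein-coding genes only. The D6 siNT share was 14.0% with a summit within 150 bp. AP-1 was found in 25.1% of windows of 100 bp (15.3% of all union regions), 47.0% of whole regions (31.3%) and 47.5% of windows with 40 to 50% GC (37.9%), so its excess over all regions was present in each. The median log2 ratio of D6 siH3.3 to D6 siNT was 0.024 after scaling by all union regions, 0.041 on fold enrichment and 0.12 at a -log10 q-value of 5, and that of D6T- to D3 was 0.46 on fold enrichment and 0.61 at that q-value. Both log2 ratios kept their sign in each setting. A reversal could not be judged for counts and shares, which have no sign. Of the 43 alternatives, 32 were classed as moved from the main result and 11 as within its range. The D6 siNT share of members, 15.3% in the main run, lay below the 20.1% of all union regions. It lay above that value without the requirement on D9T- (24.7%) and with equal numbers of peaks (48.7%). A background for the latter setting is not given. The cause of these shifts was not tested. No paired analysis was possible because each condition has 1 library. Depth limits absence most at D9T-, with 13213117 tags. The yield of calls also differed at similar depth. D16S+, with 21172835 tags, had 45436 union regions present, and D6T-, with 21390800 tags, had 126731.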
